A study of Mus musculus with 2 samples.

Results

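Histone H3.3 is the form of histone H3 that is placed on DNA at any time, and not only behind the replication fork. The HIRA complex places it at active genes and their control regions: HIRA is the scaffold, UBN1 or its relative UBN2 binds the histone, CABIN1 is a further subunit, and ASF1A hands over dimers of H3.3 and H4. DAXX and ATRX form a separate route that places H3.3 in silent chromatin near centromeres and at telomeres, and ASF1B is the ASF1 form best known from dividing cells. *H3f3a* and *H3f3b* are separate genes for the same H3.3 protein. The genes described are these 10, *Hira*, *Ubn1*, *Ubn2*, *Cabin1*, *Asf1a*, *Asf1b*, *H3f3a*, *H3f3b*, *Atrx* and *Daxx*, chosen by symbol, and all 10 are among the 28000 genes counted.

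Melanoblasts, the precursors of pigment cells, come from the neural crest and travel through the dermis into the epidermis and its hair follicles, and the study used them to ask what HIRA does in a developing lineage. The WT library came from 1 embryo of genotype *TyrCre::Hira* wt/wt with the *Rosa26-LSL-tdTomato* reporter, and the KO library from 1 embryo of genotype *TyrCre::Hira* fl/fl with the same reporter, so both carried Cre and reporter. Both were taken at E15.5 on a mixed background close to C57BL/6J, and the study's methods use WT and KO skins of the same litter. The *Tyr* promoter of the autosomal *TyrCreB* allele drives Cre in melanoblasts and in some other cells of neural crest origin, so a tdTomato+ cell need not be a melanoblast, and a cell without Cre that passed the sort would keep its *Hira* gene. Live tdTomato+ cells of trunk skin were sorted and their RNA was tagged at the 3′ end in droplets, with a unique molecular identifier (UMI) for each captured molecule. Each captured transcript thus gives 1 tag whatever its length, and levels of different genes are compared as UMIs. Differences between genes in how well they are captured were not measured.

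The WT library held 7073939 UMIs in 1546 barcodes and the KO library 5049514 UMIs in 846 barcodes, and 1540 WT and 828 KO cells were kept, with medians of 3967.5 and 5204.5 UMIs per cell. The libraries shared 0 barcodes. *Xist*, the RNA of the silenced X chromosome, had 16822 WT and 23 KO UMIs, and the Y-linked genes *Eif2s3y*, *Ddx3y*, *Uty* and *Kdm5d* had 0, 1, 0 and 0 WT and 220, 236, 82 and 54 KO UMIs. The WT library was therefore female and the KO library male, so genotype and sex cannot be told apart. The tdTomato transcript had 55 WT and 71 KO UMIs and the Cre transcript 19 and 16.

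Cells were grouped into 21 clusters, and 20 of these were named by marker genes as 11 classes, each called "-like" because the names rest on markers alone. The melanoblast-like class held 536 WT and 139 KO cells, the glial-like one 446 and 254, and the mesenchymal-like one 215 and 252. The other classes were macrophage-like (146 and 36), mast cell-like (92 and 3), adipocyte-like (43 and 8), endothelial-like (21 and 8), keratinocyte-like (12 and 81), neutrophil-like (7 and 7), erythroid-like (5 and 19) and pericyte-like (3 and 5). The melanoblast marker *Dct* stood at 3049 WT and 2904 KO CPM (10000 CPM being 1% of the UMIs of a class) in melanoblast-like cells, against 24.5 and 10.6 CPM in macrophage-like cells, a gauge of free RNA in the droplets. Other markers gave more, and differed between the libraries: in melanoblast-like cells erythroid markers went from 78.4 WT to 1120 KO CPM and keratinocyte markers from 71.3 to 549. *Dct* itself was at 175 CPM in WT mesenchymal-like and 482 in WT keratinocyte-like cells. There is 1 library per genotype and no replicate, so no test was made, and the 95% intervals in brackets cover counting error only.

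Read together, few member ratios passed 1.5-fold between the libraries. All 10 had at least 20 UMIs over both libraries in each of the 3 large classes. In melanoblast-like cells, 0 members were at least 1.5-fold higher in KO, against 10.8% of 8141 genes, and 1 member, *Hira*, was at least 1.5-fold lower (log2 -1.97, but -0.25 at equal depth), against 10.7%. That share is near the share of all genes, so the count is not a result about the members. Genes as scarce as *Hira* in this class, with 20 to 49 UMIs, passed downward in 19.0% of cases. In glial-like cells, 0 members were higher, against 11% of 8590 genes, and *Asf1b*, *Cabin1* and *Daxx* were lower, 3 members of 10 against 8.51% of all genes. In mesenchymal-like cells, 0 members were higher, against 15% of 8094 genes, and *Asf1b* and *Daxx* were lower, 2 members of 10 against 9.97%. The *Asf1b* ratio in mesenchymal-like cells was past the fold in 3 of 9 alternatives only, and that of *Daxx* in 8 of 9. In glial-like cells the *Asf1b* ratio was past it in 7 of 9, that of *Cabin1* in 8 of 9 and that of *Daxx* in 6 of 9. The 5 ratios that passed in these last classes rest on 38 to 90 UMIs each, and each of their intervals includes equal levels. Genes as scarce as *Daxx*, with 20 to 49 UMIs, passed downward in 14.3% of cases in glial-like and 15.9% in mesenchymal-like cells. Genes as scarce as *Asf1b* and *Cabin1*, with 50 to 199 UMIs, did so in 7.17% and 7.67%. Taking the members together, their median log2 ratio was 0.02 in melanoblast-like cells, 0.10 in glial-like cells and -0.17 in mesenchymal-like cells, beside -0.01, -0.01 and 0.00 over all genes tested.

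**Figure D1:**
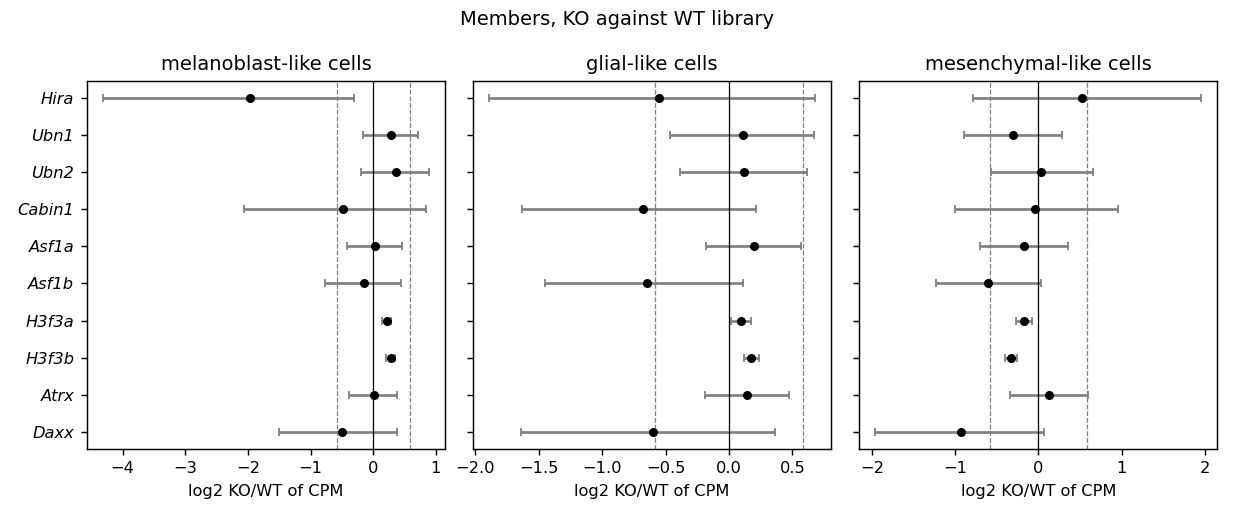
Log2 ratio of KO to WT in CPM (horizontal axis) for the 10 members in the 3 large classes, with bars for the 95% interval of the counting error, dashed lines at 1.5-fold and a scale of its own in each panel. *Hira* in melanoblast-like cells stands at -1.97 with an interval below 0, and *H3f3a* and *H3f3b* have the narrowest intervals.

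*Hira* (ENSMUSG00000022702, chr16:18877037-18970309 on the plus strand, GRCm38) encodes the scaffold on which the complex is built. In melanoblast-like cells it had 35 WT UMIs, or 13.8 CPM (9.60 to 19.2), and 3 KO UMIs, or 3.53 CPM (0.728 to 10.3). Relative to WT the log2 ratio was -1.97 (-4.31 to -0.30), where the WT level would have given 11.7 KO UMIs. Among glial-like cells it had 18 WT UMIs, or 11.04 CPM (6.54 to 17.4), and 9 KO UMIs, or 7.53 CPM (3.44 to 14.3), with a log2 ratio of -0.55 (-1.89 to 0.68). A fall in glial-like cells was not detectable with these classes. With each cell named by its own markers, which left 395 WT and 186 KO glial-like cells, the ratio was -2.24. That value rests on few UMIs and has no interval, so it does not decide whether *Hira* fell there. Among mesenchymal-like cells it had 8 WT UMIs, or 7.52 CPM (3.24 to 14.8), and 16 KO UMIs, or 10.8 CPM (6.18 to 17.6). The log2 ratio there was 0.53 (-0.78 to 1.96), and it was -0.58 at an equal depth of 2000 UMIs per cell, which left 5 WT and 4 KO UMIs.

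The fall of *Hira* was thus seen in melanoblast-like cells and rests on few molecules. Thinning to 2000 UMIs per cell left 9 WT and 2 KO UMIs in that class and a log2 ratio of -0.25, so at equal depth the fall was not detectable. So few UMIs could hardly show a fall of any size, so the thinned value does not decide whether it holds at equal depth. At full depth, 5.60% of WT (3.81 to 7.89) and 2.16% of KO (0.447 to 6.18) melanoblast-like cells had a *Hira* UMI, at median depths of 4335 and 5654 UMIs, and no class is known to lack the gene as a gauge of free RNA. Among the melanoblast-like clusters, a dividing cluster led by *Pbk*, *Dct* and *Tyr*, with *Nusap1* and *Top2a* among its leading genes, had 16 *Hira* UMIs in 157 WT cells, or 15.8 CPM, and 0 in 42 KO cells. A count of 0 gives no ratio, and the interval of the log2 ratio ends at -0.34. A cluster led by *Mt2* and *Mcoln3* had 15 UMIs in 259 WT cells and 3 in 89 KO cells, a log2 ratio of -1.25 (-3.68 to 0.58). A cluster led by *Pmel*, *Dct* and *Mlana* had 4 UMIs in 120 WT cells and 0 in 8 KO cells, where the KO limit of 85.7 CPM lies above the WT level of 7.85 CPM.

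Across the other classes *Hira* was low throughout. Keratinocyte-like cells had 3 WT UMIs, or 36.1 CPM (7.45 to 106), and 14 KO UMIs, or 18.4 CPM (10.1 to 30.9), with a log2 ratio of -0.97 (-2.81 to 1.47). Macrophage-like cells had 6 WT and 3 KO UMIs, at 7.34 and 10.6 CPM, and adipocyte-like cells 8 and 1, at 17.7 and 9.79 CPM. Mast cell-like cells had 1 WT and 0 KO UMIs, endothelial-like cells 2 and 1, and erythroid-like, pericyte-like and neutrophil-like cells 0 WT UMIs and 1 KO UMI each. In both libraries every neighbour in the order of classes by level had an overlapping interval, so no step between adjacent classes exceeded counting error. Over all cells *Hira* had 82 WT UMIs, or 11.6 CPM (9.24 to 14.4), and 50 KO UMIs, or 10.0 CPM (7.43 to 13.2).

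These UMIs do not by themselves check the deletion. The tags come from the 3′ end, where the last *Hira* exon covers chr16:18969440-18970309, or 870 bases, and the exon removed by Cre is not given in the sources used here. A transcript from a deleted allele can therefore still be counted as *Hira*. *Gm28539*, a transcript annotated on the same strand from 18836584 to 18956247, shares exon sequence with *Hira* but not its last exon, and it had 0 UMIs in both libraries.

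*Ubn1* (ENSMUSG00000039473, chr16:5050057-5086289) and *Ubn2* (ENSMUSG00000038538, chr6:38433950-38524825) encode the subunits that grip H3.3, and both gave more UMIs than *Hira* in the 3 large classes. *Ubn1* stood at 59.9 CPM in WT (50.7 to 70.2) and 72.9 in KO melanoblast-like cells (55.9 to 93.5), with a ratio of 0.28 (-0.17 to 0.72) that was -0.71 after thinning. It was at 38.0 CPM in WT and 41.0 in KO glial-like cells, and at 45.1 and 36.5 in mesenchymal-like cells. Melanoblast-like cells were the highest class for *Ubn1* in both libraries at full depth. In KO their interval lay above that of glial-like cells, next in order at 30.3 to 54.2 CPM, and in WT it overlapped that of mesenchymal-like cells, next in order at 33.2 to 59.8 CPM. Thinning left 12 KO UMIs in 139 melanoblast-like cells and 23 in 246 glial-like cells, so the KO order did not hold at equal depth. *Ubn2* stood at 39.4 WT and 50.6 KO CPM in melanoblast-like cells, or a ratio of KO to WT, in log2, of 0.36 (-0.19 to 0.89). It was at 47.8 and 51.9 CPM in glial-like cells and at 37.6 and 38.5 in mesenchymal-like cells. *Ubn2* therefore differed little among these classes, and its neighbours in order overlapped in both libraries.

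The lowest *Ubn2* ratio among classes with at least 20 UMIs was in macrophage-like cells, with 37 WT UMIs, or 45.3 CPM, and 5 KO UMIs, or 17.7 CPM, a log2 ratio of -1.35 (-3.06 to 0.00). *Ubn1* made up 60.3% of the *Ubn1* and *Ubn2* UMIs of WT melanoblast-like cells (54.0 to 66.4) and 59.0% in KO (49.0 to 68.5). For glial-like cells it made up 44.3% in WT (35.9 to 52.9) and 44.1% in KO (34.7 to 53.9). The balance of these paralogs thus leaned to *Ubn1* in WT melanoblast-like cells, while the intervals of KO melanoblast-like cells and of glial-like cells include equal shares. Thinned KO melanoblast-like cells had 12 *Ubn1* and 15 *Ubn2* UMIs, which turns their lean. In mesenchymal-like cells *Ubn1* made up 54.5% in WT and 48.6% in KO. *Ubn1* had 0 UMIs in erythroid-like and neutrophil-like cells of both libraries, and *Ubn2* had 0 in erythroid-like cells.

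*Cabin1* (ENSMUSG00000020196, chr10:75646112-75764341, minus strand), the remaining subunit, was as scarce as *Hira*. It had 25 WT UMIs, or 9.85 CPM (6.37 to 14.5), and 6 KO UMIs, or 7.06 CPM (2.59 to 15.4), in melanoblast-like cells. Across glial-like cells it had 35 WT UMIs, or 21.5 CPM (14.95 to 29.9), and 16 KO UMIs, or 13.4 CPM (7.65 to 21.7), with a log2 ratio of -0.68 (-1.63 to 0.21). Across mesenchymal-like cells it was level, at 16.0 and 15.6 CPM. WT glial-like cells exceeded WT melanoblast-like cells beyond counting error, though classes between them in the order overlapped both. In KO cells no such difference was seen, since the intervals of all classes with counts overlapped.

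*Asf1a* (ENSMUSG00000019857, chr10:53596757-53609225) encodes the ASF1 form that serves HIRA. It stood at 68.9 WT (59.1 to 80.0) and 70.6 KO CPM (53.9 to 90.9) in melanoblast-like cells, or a ratio of KO to WT, in log2, of 0.03 (-0.41 to 0.46). Among glial-like cells it was at 83.4 WT (70.0 to 98.7) and 95.4 KO CPM (78.7 to 115), a log2 ratio of 0.19 (-0.18 to 0.56) that was -0.44 after thinning. For mesenchymal-like cells it was at 52.6 (39.7 to 68.3) and 46.7 CPM (36.3 to 59.1), a log2 ratio of -0.17 (-0.70 to 0.36). Glial-like cells were above mesenchymal-like cells beyond counting error in both libraries, with melanoblast-like cells between them and overlapping each neighbour in WT. The lowest WT class with counts was macrophage-like, at 30.6 CPM (19.8 to 45.1), which was also low in KO at 21.3 CPM (7.82 to 46.4). An exon of *Mcm9* lies over *Asf1a* on the other strand.

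*Asf1b* (ENSMUSG00000005470, chr8:83955507-83970197) encodes the ASF1 form of dividing cells, which works with the replication-coupled chaperone CAF-1. It stood at 40.2 WT (32.8 to 48.8) and 36.5 KO CPM (24.8 to 51.8) in melanoblast-like cells, or a ratio of KO to WT, in log2, of -0.14 (-0.77 to 0.45). In glial-like cells it was at 28.8 (21.2 to 38.3) and 18.4 CPM (11.5 to 27.9), a log2 ratio of -0.65 (-1.45 to 0.11). In mesenchymal-like cells it was at 44.2 (32.4 to 58.7) and 29.1 CPM (21.0 to 39.2), a log2 ratio of -0.60 (-1.23 to 0.03). KO was thus the lower in all 3 classes, with intervals that include equal levels, while over all cells, whose make-up differs, the ratio was -0.49 (-0.79 to -0.20). Also in melanoblast-like cells the sign changed (0.59) when cells needed at least 500 genes. That setting left 534 WT and 57 KO cells in the class, in place of 536 and 139. In WT, adipocyte-like cells were highest at 92.8 CPM (66.9 to 125), from 42 UMIs in 43 cells, followed by mast cell-like cells at 50.5 CPM (28.3 to 83.3), whose interval overlaps. In KO the 7 neutrophil-like cells were highest, at 150 CPM (60.2 to 309) from 7 UMIs. *Asf1b* made up 4 of 11 *Asf1* UMIs in KO adipocyte-like cells and 42 of 66 in WT ones.

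Within classes, *Asf1b* followed dividing clusters. The dividing melanoblast-like cluster had 76.2 WT and 66.2 KO CPM of *Asf1b*, against 13.7 and 28.6 in the *Pmel* cluster, where KO had 1 UMI, and 17.7 and 16.6 in the *Mt2* cluster. A dividing glial-like cluster led by *Pcdh20* and *Cdc25c* had 89.0 WT and 55.2 KO CPM. The non-dividing glial-like cluster led by *Pcdh20* and *Gap43* had 15.6 and 5.92 CPM, and a small one led by *Gm29865* and *Grb14* had 0 UMIs in both libraries. Over the 17 clusters of at least 30 cells, with both libraries summed, the log2 level of *Asf1b* and that of the summed S-phase and G2/M gene lists had a Pearson correlation of 0.90, and for *Asf1a* it was 0.17. These clusters share libraries and depth, so the values are a description.

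**Figure D2:**
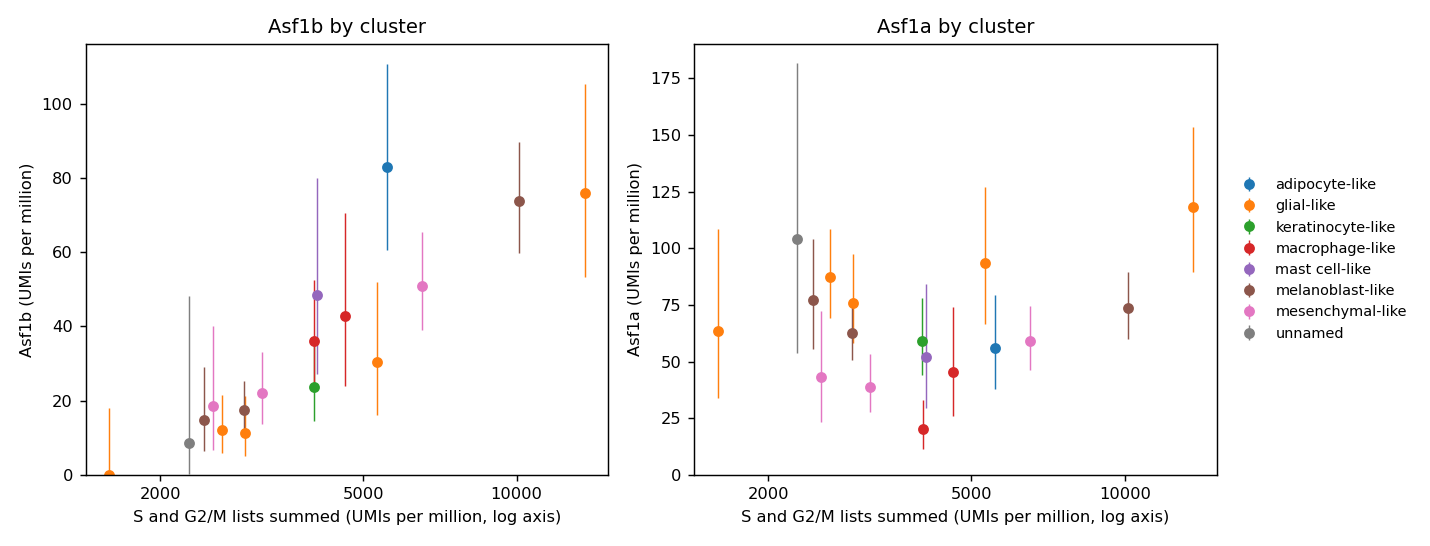
*Asf1b* (left) and *Asf1a* (right) in CPM against the summed S-phase and G2/M lists (log axis) in the 17 clusters of at least 30 cells, both libraries summed, coloured by class, with 95% bars of the counting error. *Asf1b* runs from 0 to 82.9 CPM and is high where the cycle lists are high, while *Asf1a* shows no such order.

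The make-up of the mesenchymal-like class differed between the libraries. WT mesenchymal-like cells fell mostly in a cluster led by *Crabp1* and *Twist2*, with 150 WT and 82 KO cells, and KO cells mostly in an *Mfap5* and *Clec3b* cluster, with 42 and 143. Within the *Crabp1* cluster *Asf1b* stood at 52.4 WT and 48.8 KO CPM, a log2 ratio of -0.10 (-0.91 to 0.68), and within the *Mfap5* cluster at 17.0 and 23.0, a log2 ratio of 0.44 (-1.33 to 2.84). These larger clusters did not show the difference of the class as a whole, but the *Ctsk* and *Mfap4* cluster had 5 WT UMIs and 1 KO UMI, at 34.8 and 5.49 CPM, a log2 ratio of -2.66 (-8.23 to 0.50). The G2/M list fell within the *Crabp1* cluster, from 5198 to 3730 CPM, and the *Ctsk* cluster, from 1419 to 615, but not within the *Mfap5* cluster, at 1822 and 1893. In the class, 0 of 26 G2/M genes were higher and 20 were at least 1.5-fold lower in KO, against 15% and 9.97% of all genes, with a median of -0.86, and the list fell from 4127 to 2321 CPM. Its most abundant gene, *Hmgb2*, fell from 1471 to 859 CPM, and the others were *Cdk1*, *Nusap1*, *Ube2c*, *Birc5*, *Tpx2*, *Ndc80*, *Cks2*, *Nuf2*, *Cenpf*, *Ccnb2*, *Ccnb1*, *Bub1*, *Aurka*, *Cdc20*, *Ttk*, *Kif2c*, *Cenpe*, *Hmmr* and *Plk1*. The part of the make-up and of this shift in the *Asf1b* ratio was not tested.

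*H3f3a* (ENSMUSG00000060743, chr1:180800832-180813943, minus strand) and *H3f3b* (ENSMUSG00000016559, chr11:116021912-116027962, minus strand) were by far the most abundant members, as befits a structural protein of chromatin. *H3f3a* had 12952 WT and 8657 KO UMIs over all cells and *H3f3b* 17659 and 12097. With erythroid-like cells left aside, as their level depends on the scale, melanoblast-like cells had the highest level of *H3f3a* in both libraries. It was 2354 WT (2294 to 2414) and 2736 KO CPM (2626 to 2850). Glial-like cells had 1806 WT (1742 to 1873) and 1932 KO CPM (1854 to 2012), and mesenchymal-like cells 1507 (1434 to 1582) and 1336 (1277 to 1396). In WT, the small neutrophil-like class lay next to melanoblast-like cells at 2252 CPM (1569 to 3132) and overlapped them. Further down in WT, the 12 keratinocyte-like cells at 1771, macrophage-like cells at 1629 and mesenchymal-like cells at 1507 CPM each overlapped the class next to them. In KO, with erythroid-like cells left aside, *H3f3a* was higher in melanoblast-like cells than in any other named class beyond counting error. Glial-like cells of that library exceeded macrophage-like cells, at 1583 CPM (1440 to 1737), in the same way.

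*H3f3b* was ordered differently. WT mast cell-like cells were highest at 5071 CPM (4819 to 5334), although they were near the bottom for *H3f3a* at 643 CPM (555 to 741). The 7 neutrophil-like cells at 4505 CPM (3511 to 5691) and the 3 pericyte-like cells at 4215 (2864 to 5983) overlapped them. In WT glial-like cells *H3f3b* was at 3039 CPM (2955 to 3125) and in KO ones at 3431 (3327 to 3538). Mesenchymal-like cells had 2617 WT (2521 to 2716) and 2080.05 KO CPM (2007 to 2155), and melanoblast-like cells 2063 WT (2007 to 2119) and 2506 KO (2400.3 to 2614). WT mesenchymal-like cells were above macrophage-like cells, at 2374 CPM (2270 to 2482), beyond counting error, and these were not distinct from keratinocyte-like cells at 2337 CPM (2020 to 2690). Adipocyte-like cells had 1498 WT CPM (1388 to 1615), below melanoblast-like cells, and overlapped endothelial-like cells at 1451 CPM (1202 to 1737). KO melanoblast-like cells were above macrophage-like cells at 2194 CPM (2024 to 2374), while the macrophage-like, mesenchymal-like, keratinocyte-like, mast cell-like and adipocyte-like classes overlapped from neighbour to neighbour.

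Erythroid-like cells cannot be placed in this order, because haemoglobin and other erythroid markers made up 950095 WT and 925619 KO CPM of the class. On that scale *H3f3a* had 9 WT UMIs, or 437 CPM (200 to 829), and 36 KO UMIs, or 284 CPM (199 to 393), and *H3f3b* 0 UMIs in 5 WT cells and 17 in 19 KO cells, or 134 CPM (78.1 to 215). For CPM without mitochondrial, ribosomal and haemoglobin genes, the CPM of H3f3a, erythroid-like, WT was 10949 and the CPM of H3f3a, erythroid-like, KO was 4948. The low values of this class thus depend on the scale.

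**Figure D3:**
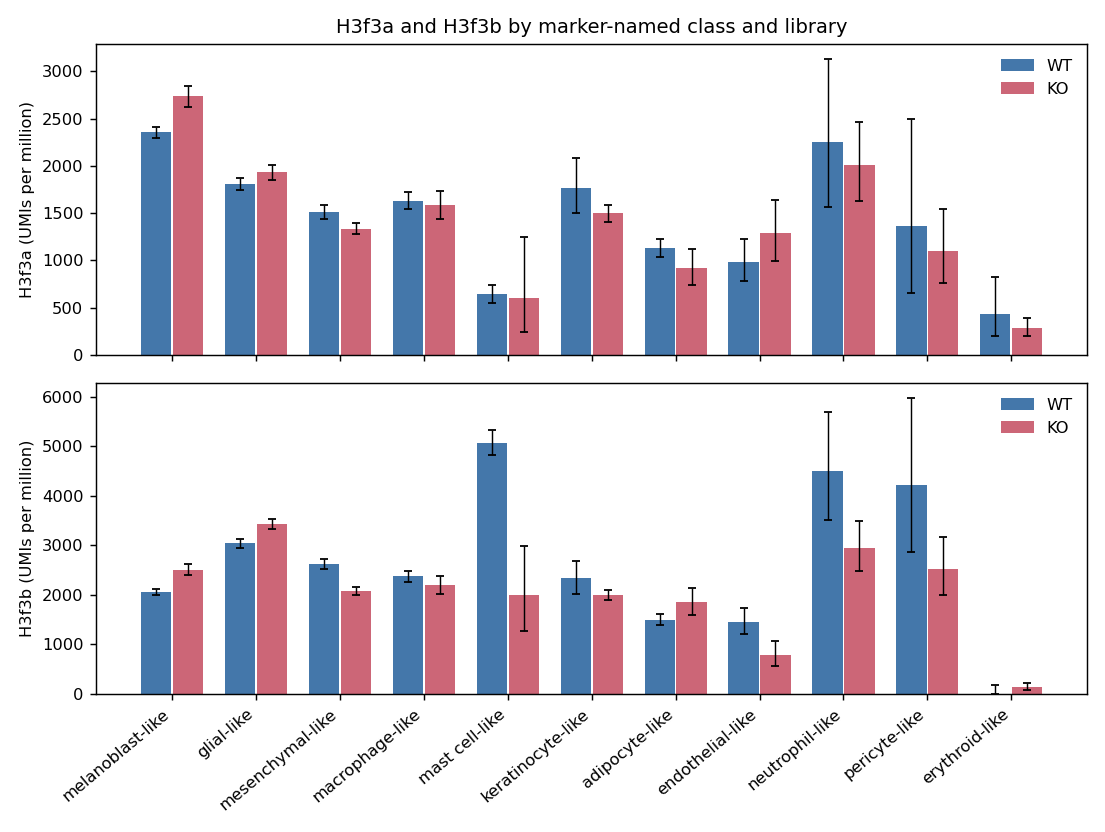
*H3f3a* (top) and *H3f3b* (bottom) in CPM in the 11 marker-named classes, WT in blue and KO in red, with 95% bars of the counting error. On this scale, on which erythroid-like cells cannot be placed, *H3f3a* is highest in melanoblast-like cells (2354 WT and 2736 KO). WT mast cell-like cells combine 643 CPM of *H3f3a* with 5071 of *H3f3b*.

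The share of H3.3 UMIs that came from *H3f3a* set some classes apart, while others overlapped. It was 53.3% in WT melanoblast-like cells (52.4 to 54.2) and 52.2% in KO (50.7 to 53.7), so the genes gave nearly equal numbers of UMIs there. It was 37.3% in WT glial-like cells (36.2 to 38.4) and 36.0% in KO (34.8 to 37.2), and 36.5% in WT mesenchymal-like cells (35.1 to 38.0) and 39.1% in KO (37.8 to 40.5). Macrophage-like cells had 40.7% in WT and 41.9% in KO, and keratinocyte-like cells 43.1% and 42.8%. WT mast cell-like cells stood far below these at 11.2% (9.78 to 12.8), or 191 of 1698 UMIs, and the 3 KO cells had 7 of 30 UMIs from *H3f3a*. At the other end, erythroid-like cells had 9 of 9 UMIs from *H3f3a* in WT and 67.9% in KO (53.7 to 80.1). In these classes the intervals of the libraries overlapped, while those of melanoblast-like, glial-like and WT mast cell-like cells did not.

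Some smaller classes did shift between the libraries. Endothelial-like cells had 40.5% *H3f3a* in WT (33.6 to 47.7), from 21 cells, and 62.3% in KO (52.3 to 71.5), from 8 cells. *H3f3b* fell there from 1451 to 783 CPM, a log2 ratio of -0.89 (-1.45 to -0.36), while *H3f3a* had a ratio of 0.39 (-0.10 to 0.87). *H3f3b* was also lower in KO in mast cell-like cells at -1.35 (-2.01 to -0.76), with 3 KO cells, in pericyte-like cells at -0.74 (-1.36 to -0.08) and in neutrophil-like cells at -0.61 (-1.03 to -0.17). Keratinocyte-like cells, 12 in WT and 81 in KO, had a smaller *H3f3b* ratio of -0.23 (-0.44 to -0.004). Adipocyte-like cells had 43.0% in WT (40.1 to 45.8) and 33.2% in KO (27.8 to 39.0), with 8 KO cells, and *H3f3b* was higher in KO there at 0.30 (0.06 to 0.54). Cells of a library are not replicates, and with so few cells a shift of this kind can come from a handful of cells.

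Between genotypes, both H3.3 genes were slightly higher in KO in melanoblast-like and glial-like cells and slightly lower in mesenchymal-like cells. In melanoblast-like cells the log2 ratio was 0.22 (0.15 to 0.29) for *H3f3a* and 0.28 (0.21 to 0.35) for *H3f3b*. In glial-like cells it was 0.10 (0.02 to 0.18) and 0.17 (0.11 to 0.23). In mesenchymal-like cells it was -0.17 (-0.27 to -0.08) and -0.33 (-0.41 to -0.26). All 6 ratios lie within 1.5-fold, and each kept its sign in all 9 alternatives tried. The summed level of both genes rose from 4416 to 5242 CPM in melanoblast-like cells and from 4846 to 5363 CPM in glial-like cells, and fell from 4124 to 3416 CPM in mesenchymal-like cells. Over all cells the ratios were -0.08 (-0.12 to -0.04) for *H3f3a* and -0.05 (-0.08 to -0.01) for *H3f3b*. The make-up of the libraries enters these values, with melanoblast-like cells at 34.8% of WT and 16.8% of KO cells, and its part was not tested. Markers of other cell types moved in the same comparisons: mesenchymal markers went from 207 to 689 CPM in melanoblast-like and from 2125 to 3137 in glial-like cells, and erythroid markers from 87.7 to 1131 in glial-like and from 82.7 to 1219 in mesenchymal-like cells. The part of free RNA or mixed droplets in the small H3.3 differences was not tested.

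Clusters within the classes differed in these ratios. In melanoblast-like cells the log2 ratio of *H3f3a* was 0.29 in the *Pmel* cluster, 0.20 in the dividing cluster and 0.32 in the *Mt2* cluster. That of *H3f3b* was 0.58 (0.27 to 0.87) and 0.55 (0.44 to 0.65) in the *Pmel* and *Mt2* clusters but -0.03 (-0.15 to 0.08) in the dividing one. In glial-like cells *H3f3b* had a ratio of 0.55 (0.44 to 0.65) in the *Pcdh20* and *Gap43* cluster and 0.01 (-0.12 to 0.15) in the dividing cluster. The other glial-like clusters had 0.46 (0.22 to 0.69) in the *Grb14* cluster, 0.11 (-0.00 to 0.22) in one led by *Sostdc1* and 0.10 (-0.10 to 0.30) in one led by *Pou3f1*. *H3f3a* in glial-like clusters had ratios of 0.27 in the dividing and *Pou3f1* clusters, 0.09 in the *Pcdh20* and *Gap43* cluster, 0.05 in the *Sostdc1* cluster and -0.30 (-0.68 to 0.06) in the *Grb14* cluster, against the direction of the class. The *H3f3b* difference was thus near 0 in both dividing clusters and uneven among the rest, a contrast that was not tested. In mesenchymal-like cells *H3f3b* was lower in KO in each cluster, at -0.20 (-0.31 to -0.09) in the *Crabp1* cluster, -0.46 (-0.61 to -0.32) in the *Mfap5* cluster and -0.58 (-0.83 to -0.34) in a cluster led by *Ctsk* and *Mfap4*. *H3f3a* had ratios of 0.03 (-0.10 to 0.16), 0.09 (-0.14 to 0.31) and -0.31 (-0.59 to -0.03) in the same clusters. As a class mesenchymal-like cells had less *H3f3a* in KO, which was not seen in the larger clusters, while that of *H3f3b* was. The part of the class make-up and of the lower G2/M list in the class values was not tested.

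*Daxx* (ENSMUSG00000002307, chr17:33909414-33915590) encodes the chaperone of the route to silent chromatin. It had 55 WT and 13 KO UMIs in melanoblast-like cells, at 21.7 (16.3 to 28.2) and 15.3 CPM (8.14 to 26.2), a log2 ratio of -0.50 (-1.50 to 0.39) that was 0.27 after thinning. In glial-like cells it had 29 and 14 UMIs, at 17.8 (11.9 to 25.5) and 11.7 CPM (6.41 to 19.7), a log2 ratio of -0.60 (-1.64 to 0.36). In mesenchymal-like cells it had 22 and 16 UMIs, at 20.7 (13.0 to 31.3) and 10.8 CPM (6.18 to 17.6), a log2 ratio of -0.93 (-1.96 to 0.06) that was -2.38 after thinning. *Daxx* was thus lower in KO in the 3 large classes, with intervals that include equal levels. Within that class the difference was seen in the *Mfap5* cluster, with 10 UMIs in 42 WT cells, or 56.6 CPM (27.1 to 104), and 5 in 143 KO cells, or 6.06 CPM (1.97 to 14.1). The log2 ratio there was -3.22 (-5.12 to -1.54), while the *Crabp1* cluster had 10 UMIs in each library and a ratio of 0.66 (-0.76 to 2.08). In macrophage-like cells *Daxx* had 7 UMIs in each library, at 8.56 WT and 24.8 KO CPM, a log2 ratio of 1.54 (-0.20 to 3.28). That interval includes equal levels too.

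*Atrx* (ENSMUSG00000031229, X:105797615-105929403, minus strand), the chromatin remodeller that works with DAXX, lies on the X chromosome, where the female WT and male KO embryos differ in dose before X inactivation. It stood at 90.2 WT (78.9 to 103) and 90.6 KO CPM (71.5 to 113) in melanoblast-like cells, or a ratio of KO to WT, in log2, of 0.01 (-0.39 to 0.38). In glial-like cells it was at 105 (90.3 to 122) and 116 CPM (97.8 to 137), a log2 ratio of 0.14 (-0.19 to 0.47). In mesenchymal-like cells it was at 62.0 (48.0 to 78.9) and 67.6 CPM (55.0 to 82.2), a log2 ratio of 0.13 (-0.34 to 0.60). A difference of *Atrx* between the libraries was not detectable in these classes. The other X-linked genes tested behaved alike as a group, with a median log2 ratio of -0.04 over 240 genes in melanoblast-like cells, -0.01 over 279 in glial-like cells and -0.02 over 264 in mesenchymal-like cells. Glial-like cells had more *Atrx* than mesenchymal-like cells beyond counting error in both libraries, and melanoblast-like cells, next to glial-like cells in level among the large classes, overlapped them.

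The partners and substitutes of these chaperones were read from gene lists in the same way, each beside the medians of all genes given above. Of the other chaperones of H3 and H4, 21 of 22 were tested in each class. In melanoblast-like cells, where 10.8% of all genes were higher and 10.7% lower, 1 was higher, the elongation factor gene *Supt6*, from 16.9 to 31.8 CPM, and 0 were lower, with a list median of -0.04. In glial-like cells 2 were higher, near the 11% of all genes, and 0 lower, with a median of -0.05: *Chaf1a*, a subunit of CAF-1, went from 11.04 to 20.9 CPM, and *Mms22l*, which acts at damaged replication forks, from 17.2 to 30.1. In mesenchymal-like cells 0 were higher, against 15% of all genes, and 3 lower, against 9.97%, with a median of -0.35: *Nasp*, which stores soluble H3 and H4, went from 164 to 104 CPM, *Mms22l* from 30.1 to 17.6 and *Supt6* from 23.5 to 15.6. The most abundant of the list, *Npm1*, was at 2335 and 2008 CPM in melanoblast-like cells, 1210 and 1093 in glial-like cells and 1481 and 1214 in mesenchymal-like cells.

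Genes that work beside HIRA or read H3.3 were read next. Of the 5 HIRA partners in the files, which are the RPA subunits, the glycosyltransferase gene *Ogt* and the methyltransferase gene *Whsc1*, 0 passed the fold in any of the 3 classes. Their medians, in the order of classes used above, were -0.21, 0.25 and -0.17, and in glial-like cells their sum had a log2 ratio of 0.22 (0.06 to 0.39). The sum had a ratio of -0.06 (-0.25 to 0.13) in melanoblast-like and -0.08 (-0.28 to 0.12) in mesenchymal-like cells. *Ogt* was the most abundant in melanoblast-like cells, at 113 and 129 CPM, and in mesenchymal-like cells, at the levels of 108 and 118, while *Rpa3* led in glial-like cells at 162 and 193. Of the 8 readers and writers, 1 was higher and 1 lower in melanoblast-like cells: *Zmynd11*, whose protein reads methylated H3.3, went from 33.1 to 52.9 CPM, and *Setd2*, a methyltransferase gene, from 41.0 to 22.4. In glial-like cells *Setd2* went the other way, from 27.6 to 49.4 CPM, and the remodeller gene *Chd2* fell from 42.9 to 20.9. In mesenchymal-like cells 0 were higher and *Setd2* alone was lower, from 40.4 to 25.0 CPM. A count of 1 in 8 is near the shares of all genes, which were 10.8% higher and 10.7% lower in melanoblast-like cells, 11% and 8.51% in glial-like cells and 15% and 9.97% in mesenchymal-like cells, so these counts are not a result about the list. Its medians were 0.22, 0.27 and -0.13. *Chd2* led the list in melanoblast-like cells at 50.4 and 49.4 CPM, and *Zmynd11* in glial-like cells at 43.5 and 56.9 and in mesenchymal-like cells at 47.9 and 35.8.

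The partners of ATRX and DAXX in silent chromatin were tested at 7 of 8 genes in melanoblast-like and mesenchymal-like cells and 6 in glial-like cells. *Setdb1*, a methyltransferase gene, went from 9.06 to 17.6 CPM in melanoblast-like cells, and *Pml*, which forms the nuclear bodies that hold DAXX, from 18 to 2 UMIs, a log2 ratio of -1.59 (-4.74 to 0.47). *Trim28*, a corepressor gene, fell from 101 to 61.1 CPM in glial-like cells, and 0 passed in mesenchymal-like cells. Over all genes, 10.8% were higher and 10.7% lower in melanoblast-like cells, and 11% and 8.51% in glial-like cells. The counts for this list, of at most 1 gene per direction and class, are not a result about it either. The medians were 0.04, -0.03 and -0.21. *Cbx3*, a heterochromatin protein gene and the most abundant, went from 360.5 to 258 CPM, from 436 to 347 and from 438 to 298. Of 8 genes for other histone variants, 1 was higher in melanoblast-like cells, *H2afy2*, from 7.09 to 15.3 CPM, 0 passed in glial-like cells, and 1 was lower in mesenchymal-like cells, the centromeric *Cenpa*, from 234 to 130 CPM. Counts of 1 in 8 are again near the shares of all genes, 10.8% higher in melanoblast-like and 9.97% lower in mesenchymal-like cells. The medians of this list were 0.13, 0.29 and -0.39. *H2afz*, the most abundant, went from 2655 to 2922 CPM in melanoblast-like cells, from 1592 to 1890.0 in glial-like cells and from 2140.07 to 1434 in mesenchymal-like cells.

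The cell cycle lists were read beside *Asf1b*. Of 38 S-phase genes, 3 were higher and 3 lower in melanoblast-like cells, and their sum went from 1870.2 to 1813 CPM. In glial-like cells 1 of 37 was higher (*Ccne2*) and 1 lower (*Mcm4*), at 1549 and 1559 CPM. In mesenchymal-like cells 0 of 36 were higher and 4 lower (*Ung*, *Prim1*, *Rrm2* and *Exo1*), at 1738 and 1514 CPM. Of 26 G2/M genes, 0 were higher and 1 lower in melanoblast-like cells (*Nusap1*), at 4003 and 3358 CPM, and 2 were higher and 0 lower in glial-like cells (*Bub1* and *Ttk*), at 3229 and 3478 CPM. These counts lie at or below the shares of all genes, 10.8% higher and 10.7% lower in melanoblast-like cells and 11% and 8.51% in glial-like cells, except for the 4 of 36, which is near 9.97%. In glial-like cells the *Asf1b* ratio was -0.65, with an interval (-1.45 to 0.11) that includes equal levels, and neither list had a lower sum in KO. A link between *Asf1b* and the lists in this class was not tested.

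Replication-coupled H3 genes, the counterpart of H3.3, make mRNAs that mostly lack a poly(A) tail, so capture at the 3′ end finds few of them. The 12 genes together had 99 WT UMIs, or 39.0 CPM, and 32 KO UMIs, or 37.6 CPM, in melanoblast-like cells, or a ratio of KO to WT, in log2, of -0.05 (-0.67 to 0.54). In glial-like cells they had 25 and 36 UMIs, at 15.3 and 30.1 CPM, a ratio of 0.97 (0.20 to 1.77), and in mesenchymal-like cells 38 and 45, at 35.7 and 30.4 CPM, a ratio of -0.23 (-0.89 to 0.43). The *H3f3a* and *H3f3b* sum exceeded these levels in every class shown, but the capture method counts the groups unequally, so their protein shares cannot be read from it. Of the 3 tested singly in melanoblast-like cells, *Hist1h3e*, at 19 and 3 UMIs, and *Hist1h3c*, at 28 and 5, were lower. Of the 1 tested in mesenchymal-like cells, *Hist1h3c*, the UMIs were 21 and 9, and in glial-like cells 0 reached 20 UMIs. Over all genes, 10.7% were lower in melanoblast-like and 9.97% in mesenchymal-like cells. Among genes as scarce, with 20 to 49 UMIs, the shares were 19.0% and 15.9%. With so few genes tested, these counts are not a result about the list.

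Genes whose level over the 17 clusters was most like that of a member were found for the 7 members with at least 200 UMIs, by the Pearson correlation of log2 levels among 5713 genes. Among the genes most like *Asf1b* were *Top2a* (0.90), *Spc24*, *Hmgb2* and *Hist1h1b*. *Asf1a* was most like *Fubp1* (0.90), *Btf3l4*, *Hnrnpa1*, *Ss18* and *Mex3a*. *H3f3a* was most like *Dhps* (0.87), *Prpf4b*, *Cpsf6*, *Eef1a1* and *Actg1*, and *H3f3b* was most like *Prkar1a* (0.88), *Ptpn12*, *Ppp1r11*, *Flot1* and *B9d2*. The correlation of *H3f3a* with *H3f3b* was -0.19. *Ubn1* was most like *Tecpr1* (0.89), *Sox6*, *Gucy1b3*, *Tex10* and *Cystm1*. *Ubn2* was most like *Ino80d* (0.89), *Sertad2*, *2010111I01Rik*, *Rbm26* and *Mark3*, and *Atrx* was most like *Rsf1* (0.92), *Afap1l2*, *Shisa4*, *Vcl* and *Atat1*. *Hira*, *Cabin1* and *Daxx* were too scarce for this comparison.

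The H3.3 genes make one protein from coding sequences that differ. Tags come from the 3′ end of a transcript, so this difference alone does not show that the tags are told apart. Their coding sequences, 411 bases each, were 76.9% identical, and 81 of the 95 differing bases lay at the last position of a codon. *H3f3a* and the replication-coupled *Hist1h3c* were 78.1% identical, and *H3f3b* and *Hist1h3c* 80.8%. At the level of nucleotides the H3.3 genes were thus no nearer to each other than to the replication-coupled gene. The stretches printed here are codons 86 to 95, counting the start codon as 1, which include the part of H3 that chaperones use to tell H3.3 from replication-coupled H3. Read from GRCm38, they lie on the minus strand at chr1:180803203-180810143 for *H3f3a* and chr11:116023533-116023651 for *H3f3b*, each split by an intron, and at chr13:23745213-23745242 for *Hist1h3c*. Capitals mark bases that differ from *H3f3b* in *H3f3a*, which are 6, and from *H3f3a* in the others, which are 6 in *H3f3b* and 9 in *Hist1h3c*.
H3f3a: caGagtgcagcTatTggtgcTTtGcaggag
H3f3b: caAagtgcagcCatCggtgcCCtTcaggag
Hist1h3c: cagagCTcGgctGtCATGgctCtgcaggag

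Stretches of 50 bases identical to other annotated genes were shared by *H3f3a* with 38 genes and by *H3f3b* with 3, of which 0 were among the genes counted, and the H3.3 genes shared none with each other.

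The DNA upstream of the H3.3 genes and of *Asf1b* is shown because *Asf1b* followed dividing clusters and the H3.3 genes gave the most UMIs. RefSeq sequences on GRCm38.p6 were found for all 10 members, and the 250 bases before the RefSeq start were searched on both strands for the letters CCAAT, for TTTGAA and for TATAAA. The letters CCAAT occurred 4 times upstream of *Asf1b* and of *H3f3b* and 1 time upstream of *H3f3a*. Of 32851 promoters, 33.8% held it at least once and 0.840% at least 4 times. TTTGAA occurred 1 time upstream of *Asf1b*, 14 bases before the start, and in 16.0% of promoters, and TATAAA 1 time upstream of *H3f3b*, 27 bases before the start, and in 12.4%. *H3f3a* held neither. Of the other members, CCAAT occurred 3 times for *Atrx*, 2 times each for *Ubn1* and *Cabin1*, 1 time for *Asf1a* and in 1 of 3 windows of *Daxx*, and TTTGAA 1 time for *Ubn2*. The gene spans given above come from GENCODE, whose outermost starts differ from those of RefSeq, so the windows of *Asf1b*, *H3f3a* and *H3f3b* lie partly or wholly inside those spans. The windows are chr8:83955444-83955693 on the plus strand for *Asf1b*, chr11:116024505-116024754 on the minus strand for *H3f3b* and chr1:180813606-180813855 on the minus strand for *H3f3a*, and capitals mark these letters on either strand.
Asf1b: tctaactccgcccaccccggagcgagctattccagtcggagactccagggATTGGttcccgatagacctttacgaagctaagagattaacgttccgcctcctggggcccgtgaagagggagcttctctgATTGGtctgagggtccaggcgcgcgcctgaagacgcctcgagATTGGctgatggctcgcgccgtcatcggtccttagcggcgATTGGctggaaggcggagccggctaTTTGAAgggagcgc
H3f3b: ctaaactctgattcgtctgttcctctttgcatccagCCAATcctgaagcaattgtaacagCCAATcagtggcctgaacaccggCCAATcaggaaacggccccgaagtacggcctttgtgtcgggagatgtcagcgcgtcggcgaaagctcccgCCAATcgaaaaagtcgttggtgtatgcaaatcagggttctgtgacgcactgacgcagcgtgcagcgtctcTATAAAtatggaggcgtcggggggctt
H3f3a: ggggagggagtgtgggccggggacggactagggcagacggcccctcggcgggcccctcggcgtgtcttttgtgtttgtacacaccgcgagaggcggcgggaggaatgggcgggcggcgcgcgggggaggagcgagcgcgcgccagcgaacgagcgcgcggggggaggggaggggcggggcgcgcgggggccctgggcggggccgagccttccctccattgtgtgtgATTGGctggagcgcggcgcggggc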

How the data were processed

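The counts are UMIs per gene and barcode as deposited by the authors, who ran Cell Ranger 2.2.0 on mm10 with tdTomato and Cre added. Barcodes were dropped for fewer than 100 genes (4 in WT, 6 in KO) or a mitochondrial share above 10% (3 in WT, 12 in KO), none exceeded the limit of 40000 UMIs, and no doublets were removed. Counts of genes in at least 3 cells were scaled to 10000 per cell and logged, and cells of both libraries were grouped jointly on 1999 variable genes, leaving aside the members and the sex-linked, reporter and Cre genes, by 30 principal components, 15 neighbours and Leiden resolution 1, seed 0. Clusters were named for the class of 13 whose marker list had most of its genes raised, with at least 3 raised and no other class ahead among the 10 leading genes, a marker being raised with a UMI in at least 10% of cells and a level at least 1 log2 unit above other cells. UMIs were summed per class and library. Intervals are exact Poisson for levels, Clopper-Pearson for shares and conditional binomial for ratios, and the limit for a count of 0 is 3 counts. Genes with at least 20 UMIs in a class were read against 1.5-fold. Named genes are the members, the list genes that passed the fold, the most abundant gene of each list and the 5 genes most like each member, with 10 CPM added before the logarithm, except that not every gene is named for the S-phase list in melanoblast-like cells and for *Asf1b*. Members and lists were chosen with earlier results of these data known. The clusters and small classes described singly were picked from all of them after their values were seen, so an extreme ratio among them is partly a product of that choice. Alternatives were at least 500 genes per cell, Leiden resolutions 0.5 and 2, cells named one by one, means over cells, thinning to 2000 UMIs (102 WT and 23 KO shallower cells left out), scaling without mitochondrial, ribosomal and haemoglobin genes, median-ratio size factors, Scrublet calls removed (9 WT, 6 KO), and minimums of 5 and 100 UMIs. The steps were tested on simulated data. The work ran in Python 3.11.15 with matplotlib 3.10.9 for figures, scipy 1.17.1 for intervals, scanpy 1.11.5, igraph 0.11.9 and scikit-image 0.26.0 for clusters and doublets, and pandas 2.3.3, numpy 2.4.6 and anndata 0.12.19 for tables.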

Additional observations from a re-analysis of the deposited data

Results flagged for a closer look

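The H3.3 genes moved in opposite directions between classes: KO was above WT in melanoblast-like and glial-like cells and below it in mesenchymal-like cells, with each interval on its own side of 0. For *H3f3a* the log2 ratio in mesenchymal-like cells lay 0.39 below that in melanoblast-like cells and 0.27 below that in glial-like cells. For *H3f3b* these gaps were 0.61 and 0.51. Within the *Crabp1* and *Mfap5* clusters, which hold most mesenchymal-like cells and are filled differently by the libraries, *H3f3a* did not fall (0.03 and 0.09). With 1 library per genotype the difference between classes was not tested.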

How the results depend on the processing

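The log2 ratios of the members in the 3 large classes gave 268 values under the alternatives, of which 258 stayed within the counting interval of the value reported and 10 moved. *H3f3a* and *H3f3b* kept their sign in all 9 alternatives in each class. With cells thinned to 2000 UMIs, the *Hira* ratio in melanoblast-like cells went from -1.97 to -0.25 and the *H3f3b* ratio from 0.28 to 0.36. Of 8 alternatives with a value, the other 7 kept *Hira* in melanoblast-like cells past 1.5-fold lower. With at least 500 genes per cell, cells were clustered and named anew. No *Hira* ratio could then be given, as the 57 KO cells still named melanoblast-like had 0 UMIs. In the clusters reported above, the 3 KO *Hira* UMIs of the class lay in the *Mt2* cluster. With each cell named by its own markers, the *Hira* ratio in glial-like cells went from -0.55 to -2.24 and the *H3f3b* ratio in mesenchymal-like cells from -0.33 to -0.21.

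Counts of genes past 1.5-fold followed the minimum of UMIs. At 100 UMIs, 158 genes were higher and 132 lower in melanoblast-like, 150 and 120 in glial-like, and 263 and 130 in mesenchymal-like cells. At 5 UMIs these were 1790 and 1664, 2055 and 1352, and 2392 and 1586. Thinning left 711 genes higher in mesenchymal-like cells in place of 1212. At least 500 genes per cell, with cells clustered and named anew, gave 1325 lower in melanoblast-like cells in place of 869. The cause of these moves was not tested. Median-ratio size factors shifted the ratios by -0.01, -0.01 and -0.00.

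Among scarcer members, some moves left the counting interval and changed sign: after thinning, *Ubn1* in melanoblast-like (-0.71), *Asf1a* in glial-like (-0.44) and *Ubn2* in mesenchymal-like cells (-0.81), and with at least 500 genes per cell *Asf1b* in melanoblast-like cells (0.59). After thinning *Atrx* in melanoblast-like cells rose to 0.42 and *Daxx* in mesenchymal-like cells fell to -2.38. Other signs changed inside the interval, among them, after thinning, *Hira* (-0.58) and *Cabin1* (0.39) in mesenchymal-like, *Daxx* (0.27) in melanoblast-like and *Ubn2* (-0.06) and *Atrx* (-0.06) in glial-like cells. Thinning left no KO *Cabin1* UMI in melanoblast-like cells, so no ratio, and at least 500 genes per cell left no erythroid-like class. Of 220 shares of cells with a UMI, 114 moved on thinning. Of 1960 levels, 182 moved, and of 196 shares of *H3f3a*, 7.

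Depth limits the scarce members: *Hira*, *Cabin1* and *Daxx* had 132, 167 and 193 UMIs over all cells, so that only changes of several fold would show in a class. The KO melanoblast-like class had 139 cells, and 8 or fewer KO cells formed each of the mast cell-like, adipocyte-like, endothelial-like, pericyte-like and neutrophil-like classes. Genotype, sex and library cannot be told apart.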
